A study of Drosophila melanogaster with 3 samples.

Results

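The genes described here are those of protein synthesis: translation initiation and elongation factors, and the aminoacyl-tRNA synthetases that load tRNAs with amino acids. They were chosen by symbol alone, as protein-coding genes of the Ensembl annotation on the main chromosome arms whose names begin with eIF or eEF and a digit, or consist of letters alone followed by RS or RS-m. The hyphen keeps alpha-PheRS and beta-PheRS, the subunits of the cytoplasmic phenylalanine enzyme, out of the set. The rule found 84 of 13945 protein-coding genes, of which 51 were translation factors and 33 were synthetases, 18 cytoplasmic and 15 mitochondrial. The -m in a symbol marks an enzyme of the mitochondrion. The symbol rule used no measured value.

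The assay was ChIP-seq of GFP-tagged unpg, a homeodomain transcription factor, in whole Drosophila melanogaster embryos aged 4 to 16 hours. All 3 samples (replicates 3, 4 and 5) belonged to 1 group: a line that stably carries unpg with GFP at its C terminus, precipitated with an anti-GFP antibody according to the sample descriptions, although the antibody field names unpg. Whole embryos mix many cell types, the labels do not say whether the native unpg gene was intact, and embryos without the tag were not analysed here, so which peaks need the fusion protein was not tested. The data were peak lists without read counts, so the depth is unknown: 30000 peaks per replicate, 30000 peaks called on the 3 replicates together (the pooled list) and 7176 peaks that passed the irreproducible discovery rate (the IDR list). Each peak has a summit, and each summit was given to the protein-coding gene with the nearest transcription start site, at most 20 kb away.

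Protein synthesis starts when initiation factors bring messenger RNA, the initiator tRNA and the small ribosomal subunit together. Elongation factors then deliver each loaded tRNA and move the ribosome along. Cytoplasmic synthetases serve the ribosomes that translate nuclear messages, and the mitochondrial enzymes, also encoded in the nucleus, serve the ribosomes inside mitochondria. Here the split follows the symbol alone, and every synthetase gene without -m was counted as cytoplasmic. Some of these, among them ThrRS, GlyRS, LysRS and HisRS, have no -m counterpart in the set. Whether they also supply mitochondria was not examined. Most of these genes are active in nearly every cell.

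Translation genes carried IDR summits about as often as other genes. Of the 84 genes, 23 (27.4%) had 1 or more assigned IDR summits, beside 26.9% of all protein-coding genes, and they held 31 summits in all. The share was 27.5% for factors (14 of 51) and 27.3% for synthetases (9 of 33). Within the synthetases the classes stood apart: 7 of 18 cytoplasmic enzymes (38.9%) had an IDR summit against 2 of 15 mitochondrial enzymes (13.3%).

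The replicate lists, each limited to its 7176 strongest peaks, gave similar counts. Replicates 3, 4 and 5 had such a summit at 22, 24 and 21 of the 84 genes, a mean of 26.6% ± 1.82 (SD, n = 3), where 28.1%, 27.5% and 28.0% of all genes had one. Factors stood at 14, 16 and 13 of 51, and synthetases at 8 of 33 in each replicate. The factor share was higher by 3.86 ± 3.00 percentage points (SD, n = 3), and with every gene counted whose start lay within 500 bp of a summit the difference turned to -3.03 points. Cytoplasmic enzymes stood at 6, 6 and 7 of 18 and mitochondrial enzymes at 2, 2 and 1 of 15. That difference was 20, 20 and 32.2 points in replicates 3, 4 and 5, a mean of 24.1 ± 7.06 points (SD, n = 3), so the cytoplasmic share was higher in 3 of 3 replicates. For both differences the exact sign-flip permutation test over 3 replicates, two-sided, gave p = 0.25, the smallest it allows, so this design cannot pass the usual significance threshold. The 3 lists were read at the same genes, so the SD and p describe differences between lists and not the spread between genes. The mitochondrial value rests on few genes. Among IDR peaks that overlapped one of the 7176 strongest peaks in both replicates 4 and 5, or in both replicates 3 and 5, it was 1 of 15. In both settings 22.6% of all genes had such a peak.

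**Figure D1:**
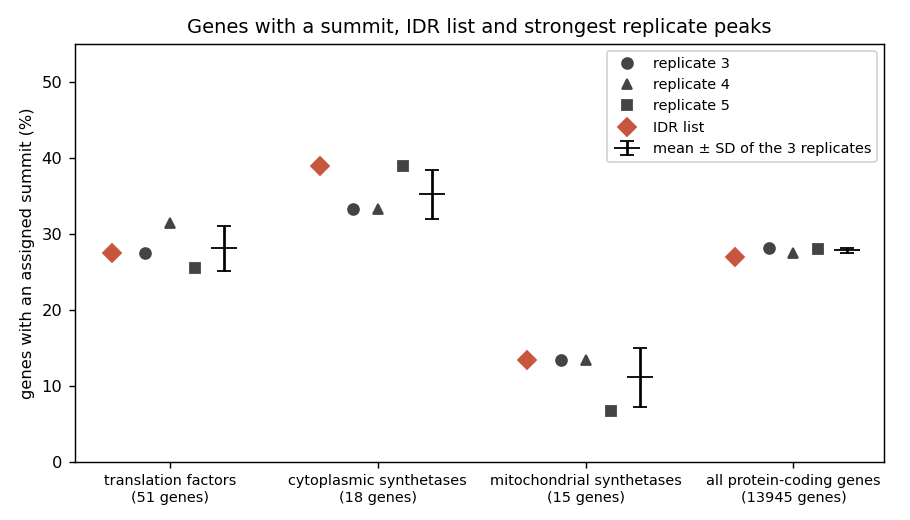
Percentage of genes with an assigned summit (y axis) for translation factors, cytoplasmic synthetases, mitochondrial synthetases and all protein-coding genes. Diamonds are the IDR list, the other symbols the strongest peaks of each replicate, and the bars mean ± SD of the 3 replicates; cytoplasmic enzymes lie above mitochondrial enzymes in each replicate.

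With the full pooled list of 30000 peaks, 37 of the 84 genes (44.0%) had a pooled summit, beside 45.2% of all genes. In replicates 3, 4 and 5 the full lists reached 38, 44 and 41 genes, beside 50.8%, 51.0% and 51.7% of all genes. Here too the mitochondrial enzymes were low, at 3, 4 and 4 of 15, while the cytoplasmic enzymes stood at 9, 11 and 11 of 18.

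The DNA under the strongest promoter summit of each of 6 groups is shown so that its composition can be read directly. Each runs 5′ to 3′ on the strand of its gene, with 50 bases on either side of the summit, from the Release 6 reference (dm6). Capitals mark matches to any of 10 short words searched on both strands. The DNA replication-related element (DRE) was searched as TATCGATA. Motif 1, a core promoter element of housekeeping genes, was searched as GGTCACACT. The E-box, bound by helix-loop-helix proteins, was searched as CACGTG. A first homeodomain word was TAATTA. The other homeodomain word searched alongside it was CAATTA. The box bound by the TATA-binding protein was searched as TATAAA. The initiator, found at many start sites, was searched as TCAGT. The core of the pyrimidine-rich initiator of ribosomal protein genes was searched as TCTTT. The word of the GAGA factor was searched as GAGAG. The last word, with no factor named for it, was ATATTA. Words may overlap one another, and a match describes letters only. The eEF1gamma window is chr3R:29220083-29220183 (plus strand), SerRS chr2L:3037348-3037448 (minus), ArgRS-m chr3R:7886893-7886993 (plus), eIF3h chr2L:5052412-5052512 (minus), eIF5B chr3L:3460689-3460789 (minus) and eIF2A chr3L:21824897-21824997 (plus).
eEF1gamma: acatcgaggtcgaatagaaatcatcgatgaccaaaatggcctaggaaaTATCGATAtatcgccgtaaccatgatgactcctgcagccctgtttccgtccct
SerRS: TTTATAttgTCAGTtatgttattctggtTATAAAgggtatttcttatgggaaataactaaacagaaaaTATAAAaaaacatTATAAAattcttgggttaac
ArgRS-m: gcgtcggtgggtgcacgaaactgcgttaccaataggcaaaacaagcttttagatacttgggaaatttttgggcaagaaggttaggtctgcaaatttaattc
eIF3h: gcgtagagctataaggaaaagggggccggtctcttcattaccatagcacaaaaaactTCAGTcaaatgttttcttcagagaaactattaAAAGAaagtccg
eIF5B: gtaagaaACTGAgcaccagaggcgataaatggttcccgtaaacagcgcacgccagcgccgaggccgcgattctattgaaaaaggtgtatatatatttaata
eIF2A: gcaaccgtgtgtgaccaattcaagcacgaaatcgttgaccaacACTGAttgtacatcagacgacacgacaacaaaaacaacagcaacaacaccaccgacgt

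The windows differ in base composition. The SerRS window is rich in A and T, with 22.8% GC, while the ArgRS-m window has 42.6% GC, more than the 39.6% of the factor eIF3h, and that of eEF1gamma has 46.5% GC and holds a DRE that covers the summit base. Promoter summits, those within 500 bp of a start site, numbered 14 at factors, including 2 from overlapping peaks at eIF3h, and 9 at synthetases. Their median GC content within 50 bp of the summit was 46.5% at factors (range 25.7 to 62.4%) and 25.7% at synthetases (20.8 to 42.6%), beside 31.7% at all 2636 IDR promoter summits. The 7 cytoplasmic synthetase summits lay between 20.8 and 26.7%, and only 1 of the 14 factor summits, at eIF1A with 25.7%, fell in that range. In the strongest peaks of replicates 3, 4 and 5 the factor median was 45.5, 46.5 and 43.6% and the synthetase median 25.2, 25.2 and 27.2%. Factors were thus higher by 19.3 ± 2.59 points (SD, n = 3), in 3 of 3 replicates (exact sign-flip permutation p = 0.25, the smallest possible, two-sided). The replicate lists share most of these sites, so the SD and p describe differences between lists and not the spread between genes.

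GC content moved with position and with neighbouring genes. Factor summits had a median signed position of -28.5 bp (negative is upstream), against -109 bp at synthetases and -114 bp at all IDR promoter summits. Upstream and downstream summits offset each other in this median, and factor summits ran from -136 to 318 bp. By distance, 9 of the 14 factor summits lay within 100 bp of the start, as did 2 of the 9 synthetase summits and 952 of all 2636. Over all genes, summits within 100 bp of the start had a median GC of 39.6% and those at 101 to 500 bp 28.7%. Within 100 bp, the 9 factor summits had a median of 46.5% and the 2 synthetase summits 24.8%. At 101 to 500 bp the 5 factor summits had 39.6% and the 7 synthetase summits 25.7%. Another protein-coding gene started within 500 bp of 7 of the 9 synthetase summits (77.8%), 4 of the 14 factor summits (28.6%) and 31.6% of all IDR promoter summits, where the median GC was 28.7% with such a neighbour and 32.7% without. The part of position and neighbours in the class difference was not tested further. Across whole promoters, from 250 bases before to 50 after the outermost start, the classes were close, with median GC of 36.3% in factors, 35.3% in synthetases and 38.0% in all genes.

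**Figure D2:**
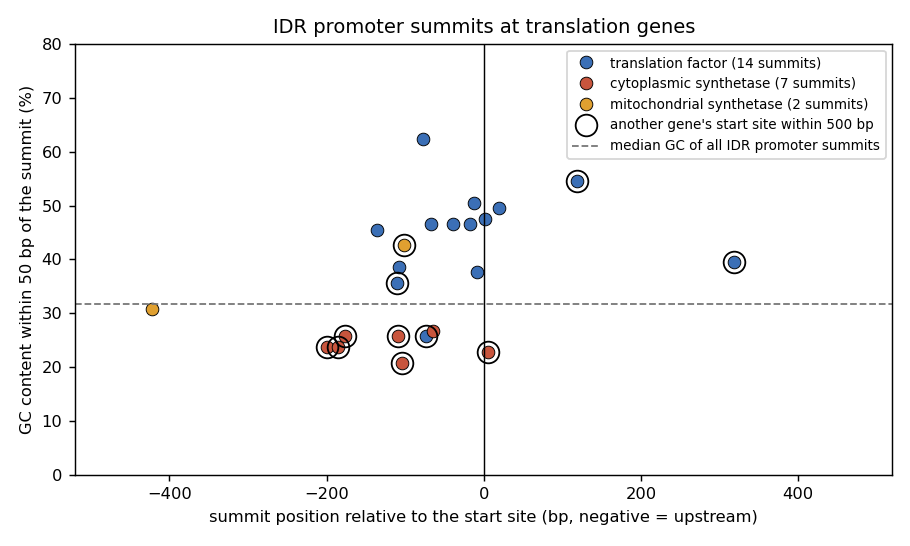
Each filled point is 1 IDR promoter summit at a translation gene, by its position relative to the start site (x axis, bp) and the GC content within 50 bp (y axis, %). Ringed points have another protein-coding gene's start within 500 bp; the 7 cytoplasmic synthetase summits lie between 20.8 and 26.7% GC, below the dashed median of 31.7%.

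Among initiation factors, the gene for eIF6, which keeps the large ribosomal subunit from joining early, had the strongest promoter peak. It spanned 2R 23850208 to 23850583 and ranked 59 of 7176 by the authors' signal value, a score with no stated scale used only to rank within a list. The overlapping peaks ranked 40, 97 and 77 in replicates 3, 4 and 5, so it was near the top of each. Its summit lay 108 bp upstream of the eIF6 start, within an intron of ytr. A noncoding gene, asRNA:CR45928, started closer, at 79 bp, so the assignment depends on counting protein-coding genes only.

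The genes whose symbols begin with eIF2 numbered 10. They cover eIF2, which carries the initiator tRNA, its exchange factor eIF2B, and also eIF2A and eIF2D, which are grouped here by name only. Beside the 26.9% of all genes, 1 of them had an IDR summit, eIF2A, 18 bp upstream of a start (3L 21824850 to 21825009), at IDR rank 3906 and ranks 4142, 3952 and 4776 of the replicates. None of eIF2alpha, eIF2beta and eIF2gamma had an IDR summit, and eIF2gamma had no summit in any list. No gene for any of the 5 eIF2B subunits had an IDR summit, and 3 of them, eIF2Balpha, eIF2Bdelta and eIF2Bepsilon, had no summit in any list, where 37.4% of all genes had none. For eIF2Bbeta an IDR summit of rank 4 lay 680 bp from the start but belonged to Ugalt. Without an IDR summit, eIF2alpha, eIF2beta and eIF2Bbeta had summits in the pooled list and in the full list of each replicate, and eIF2beta was in the strongest lists of replicates 4 and 5, at ranks 5429 and 5028.

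In eIF3, the large complex that binds the small ribosomal subunit, 3 of 16 genes had IDR summits (eIF3c, eIF3h and eIF3m), beside 26.9% of all genes. Another 6 had none in any list (eIF3d1, eIF3d2, eIF3e, eIF3f2, eIF3i and eIF3k), a share near the 37.4% of all genes. The eIF3h peak at 2L 5052303 to 5052587 ranked 1438 in the IDR list and 1341, 1438 and 1489 in the replicates. Its summit lay in an intron 318 bp downstream of the nearest eIF3h start. A second and weaker eIF3h peak (2L 5052480 to 5052843, rank 6853) overlapped the first, and the strongest replicate peaks under both were the same. In replicate 4 the second also overlapped a further peak (2L 5052711 to 5052894, rank 3704, summit 65 bp downstream) that the first did not reach. The full lists of replicates 3 and 5 had 1 summit each at eIF3h, so only replicate 4 held the 2 apart. In the eIF3c peak (2R 17665499 to 17665779) the summit was 9 bp upstream, at IDR rank 1966 and replicate ranks 1818, 2658 and 2131.

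The eIF4 group, which recognises the cap of messenger RNA and unwinds it, held 13 genes, of which 7 had no summit in any list, beside 37.4% of all genes. These were eIF4B, eIF4E4, eIF4E6, eIF4E7, eIF4EHP, eIF4G1 and eIF4G2. Both starts of eIF4G2 are shared with CG33111, which received the 1 pooled summit and the 1 summit of each replicate nearest to them, since ties went to the first symbol. The cap-binding gene eIF4E1 had 3 pooled summits but none in the IDR list, and its best replicate ranks were 8881, 15636 and 14649. The paralog eIF4E5 carried 2 IDR summits, both far from its start at 12577 and 11369 bp upstream and both inside an intron of CG32365. The stronger (3L 7882084 to 7882448) ranked 1635 in the IDR list and 1713, 1409 and 2036 in the replicates. It was the farthest IDR summit of any translation gene, and no summit of any list whose nearest start belonged to one lay beyond 20 kb. eIF4H2 likewise had only a distant summit, 7427 bp upstream at rank 6017 and replicate ranks 5271, 6832 and 12036. A transposable element started nearer to the 2 eIF4E5 summits, at 4266 and 3058 bp. The noncoding gene lncRNA:CR46219 started nearer to the eIF4H2 summit, at 3535 bp. With starts of any biotype counted, neither gene kept an IDR summit. eIF4A, the RNA helicase of the group, had 2 promoter summits, at different start sites, of ranks 5268 and 5847. Its values are given outside the naming rule, with the data in view. The nearest IDR summit to eIF4B was 591000 bp away.

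The start codon factor genes eIF1 and eIF1A and the subunit joining factor eIF5B completed the initiation genes with summits. eIF1A had an IDR summit 73 bp upstream (3R 18274410 to 18274773) at rank 6283 and replicate ranks 9529, 5785 and 7050, so it was beyond the strongest 7176 in replicate 3. In replicate 5 the summit lay nearer to the neighbour Vps39 and was counted there. eIF5B had a promoter peak (3L 3460611 to 3460912, summit 136 bp upstream of a start) at rank 1927, with ranks 1530, 2613 and 2186 in the replicates. A further 2 eIF5B summits lay in its introns, 9890 and 10677 bp downstream of the start, at ranks 4838 and 5143. The eIF5 gene, whose product activates the GTPase of eIF2, had no summit assigned to it in any list. It shares 1 of its 2 starts with CG46312, which by the same tie rule received the 1 summit of each full replicate list nearest to that start.

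Of the 7 elongation factor genes 4 had IDR summits (26.9% of all genes), and all 7 had a summit in 1 or more of the lists, where 37.4% of all genes had none. eEF1gamma, a subunit of the exchange factor for eEF1alpha, had 4 IDR summits, the most of any of the 84 genes. The strongest (3R 29214227 to 29214639) was also the strongest at any translation gene, at IDR rank 35 and replicate ranks 34, 35 and 44. It lay in intergenic DNA 5728 bp upstream of eEF1gamma but 118 bp from the start of the noncoding gene lncRNA:CR31044. The promoter peak of eEF1gamma (3R 29219911 to 29220367), whose window is printed above, peaked 39 bp upstream, at rank 431 and replicate ranks 338, 585 and 445. The other 2 were weaker, at ranks 5136 and 6809, and noncoding genes also started nearer to them, at 629 and 1017 bp. With starts of any biotype counted, eEF1gamma thus kept 1 of the 4. In the 7176 strongest peaks, replicates 3, 4 and 5 had 3, 4 and 4 summits at this gene.

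eEF2, the translocase that moves the ribosome along, had a summit 12 bp upstream of a start (2L 21681900 to 21682326) at rank 1492 and replicate ranks 1375, 1898 and 1537. eEF5, which helps ribosomes past difficult peptide bonds, had one 2 bp downstream of its start (2R 24057657 to 24057948) at rank 2211 and replicate ranks 1782, 3775 and 1797. Both were in the strongest lists of each replicate. eEF1alpha1, which delivers loaded tRNAs, had a weaker promoter summit, at rank 4013 and replicate ranks 3362, 3342 and 8980. It had no summit in the strongest list of replicate 5. eEF1alpha2 and eEF1delta had summits in the pooled but not the IDR list, and eEF1beta only in the full lists of replicates 4 and 5.

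**Figure D3:**
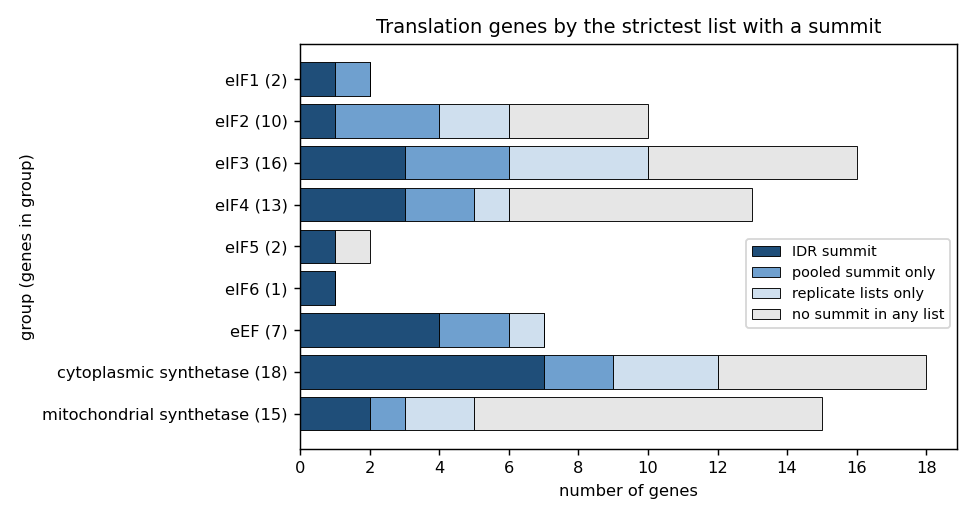
Number of genes (x axis) in each group of translation genes (y axis), divided by the strictest list in which the gene had an assigned summit, from the IDR list to none. Of 15 mitochondrial synthetase genes 10 had no summit in any list, as did 6 of 18 cytoplasmic ones and none of the 7 elongation factor genes, beside 37.4% of all protein-coding genes.

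All 9 synthetase summits were in promoters. SerRS, the enzyme for serine, had the strongest (2L 3037219 to 3037562), its summit 5 bp downstream of the start, at IDR rank 436 and replicate ranks 345, 450 and 655. IleRS, for isoleucine, followed at rank 454 (3L 22288268 to 22288648, 176 bp upstream; replicate ranks 491, 493 and 413). ThrRS, for threonine, ranked 668 (2L 12103357 to 12103731, 199 bp upstream; 490, 1104 and 720). These genes were in the strongest list of every replicate.

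GluProRS, a fused enzyme for glutamate and proline, had a peak at 3R 23958334 to 23958693 of rank 738, with overlapping peaks at ranks 682, 975 and 723. In replicate 3 the summit of that peak lay nearer to the divergent neighbour AP-1sigma and was counted there, which is why replicate 3 lists no summit at GluProRS. AsnRS, for asparagine, ranked 2427 (2L 19131951 to 19132168, 104 bp upstream; replicate ranks 2624, 2393 and 2041). AlaRS, for alanine, ranked 4199 (2L 8381805 to 8381970, 64 bp upstream; 6328, 3764 and 4459). GlyRS was the weakest of the 7. Of the cytoplasmic enzymes, GlnRS, HisRS, LeuRS, MetRS, TrpRS and TyrRS had no summit in any list. HisRS shares its single start site with Bx, and the 2 IDR summits nearest to that start were counted at Bx by alphabetical order.

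Only 2 mitochondrial enzymes had an IDR summit, and neither was among the stronger 3588 IDR peaks. ArgRS-m, for arginine, had a peak (3R 7886855 to 7887063, summit 102 bp upstream) of rank 4148 with replicate ranks 2679, 5335 and 8065, and only replicate 3 had a strong summit assigned to it. SerRS-m had one (3R 15340144 to 15340290, summit 422 bp upstream in an intron of Nagk) of rank 4698 with replicate ranks 7069, 4307 and 5275. The 10 mitochondrial genes without a summit in any list were AlaRS-m, AsnRS-m, AspRS-m, CysRS-m, GluRS-m, IleRS-m, LeuRS-m, MetRS-m, PheRS-m and TyrRS-m.

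For 12 amino acids the set holds a cytoplasmic and a mitochondrial gene of matching name. GluProRS has no single counterpart of that kind and is not among these pairs: it had an IDR summit, while the mitochondrial glutamate and proline genes, GluRS-m and ProRS-m, had none. In 7 of the 12 pairs neither gene had an IDR summit. In 3 pairs (alanine, asparagine and isoleucine) only the cytoplasmic gene had one, in 1 pair (arginine) only the mitochondrial gene, and in the serine pair both did. With the strongest replicate peaks, the pairs with only the cytoplasmic gene numbered 3 in each replicate, and those with only the mitochondrial gene 1, 0 and 0.

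**Figure D4:**
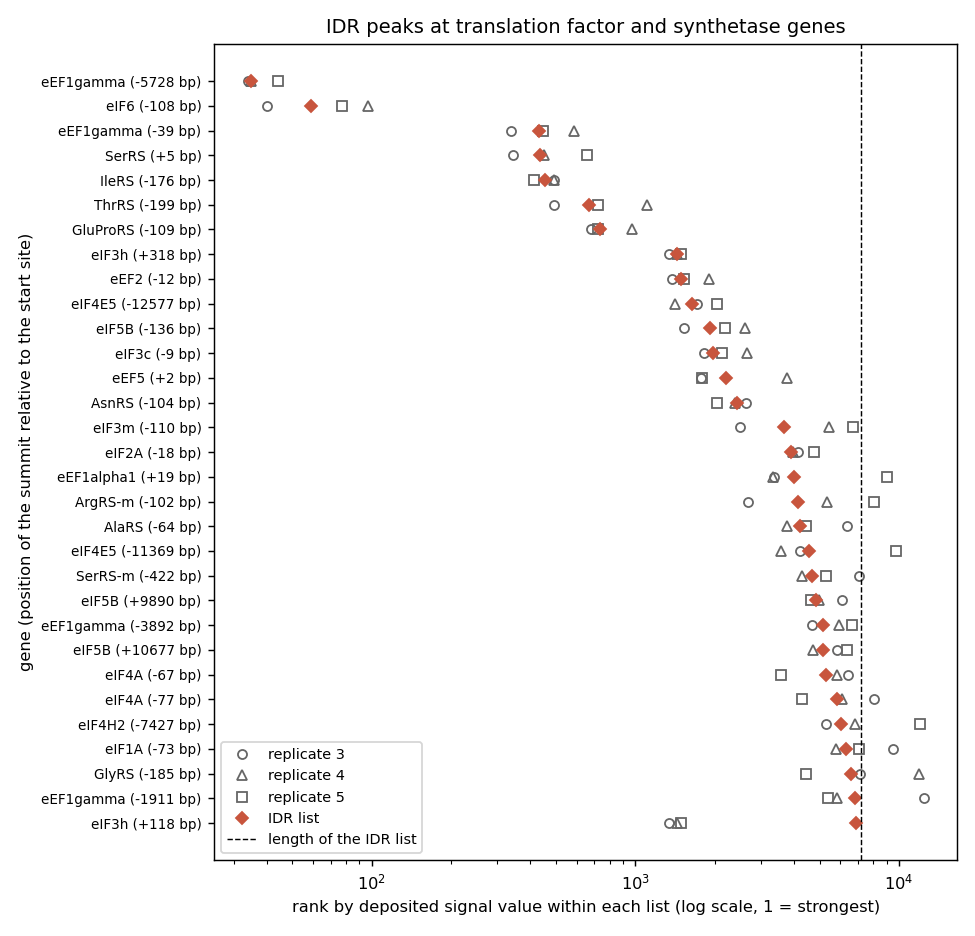
Rank of each IDR peak at a translation gene (x axis, log scale, 1 is strongest) in the IDR list and of the strongest overlapping peak in each replicate; genes are ordered by IDR rank, with the position of the summit relative to the start site. The peaks at eEF1gamma (rank 35) and eIF6 (rank 59) stand at the top in every list, and the dashed line marks rank 7176.

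Of the 31 IDR summits, 10 (32.3%) were among the strongest 1794 IDR peaks, against 25.5% of all assigned summits, and 23 (74.2%) were in promoters, against 38.3%. By genes, 21 of 84 (25.0%) had an assigned promoter summit, beside 17.0% of all genes. Translation genes had short catchments, the DNA for which a gene's start is the nearest, with a median of 3015 bp against 4253 bp for all genes. Of the 23 genes with an IDR summit, 16 had a strong summit in each of the 3 replicates, 5 in 2 and 2 in 1. The same split was not counted for all genes with an IDR summit. With or without an IDR summit, 17 of the 84 genes and 2966 of all 13945 genes had a strong summit in each replicate.

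Head-to-head neighbours were common, and they affect which gene receives a summit. A divergent protein-coding gene started within 500 bp of 14 of 18 cytoplasmic synthetase genes (77.8%), 7 of 15 mitochondrial ones (46.7%), 19 of 51 factors (37.3%) and 27.4% of all genes. When each summit counted for every gene with a start within 500 bp, 25 of the 84 genes (29.8%) had an IDR summit, beside 22.8% of all genes. Among genes with a divergent neighbour this share was 6 of 14 (42.9%) for cytoplasmic synthetases and 39.6% for all genes. For mitochondrial synthetases it was 2 of 7 (28.6%). Without a divergent neighbour the shares were 2 of 4 cytoplasmic and 1 of 8 mitochondrial genes, and 16.5% of all genes. By assigned IDR summits within 20 kb, the share among genes with a divergent neighbour was again 6 of 14 for cytoplasmic synthetases. It was 1 of 7 for mitochondrial ones, beside 26.2% of all such genes. Without a divergent neighbour the assigned shares were 1 of 4 cytoplasmic and 1 of 8 mitochondrial genes, and 27.2% of all genes. A further 4 translation genes had an IDR summit within 500 bp that was assigned to a neighbour, and they are named with those values in view. eIF4EHP, a cap-binding repressor, lay 243 bp from a summit of rank 67 given to CG18428. eIF1 lay 345 bp from one of rank 1579 given to the ribosomal protein gene RpL28. CysRS-m lay 101 bp from one of rank 2953 given to O-fut1, and ValRS 407 bp from one of rank 3206 given to Kdm4B.

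Genes with weaker support were also counted. Over all genes, 26.9% had an assigned IDR summit and 45.2% a pooled one, where the 84 genes stood at 27.4% and 44.0%. The shares of all genes with a pooled summit only, or with summits only in replicate lists, were not counted. A pooled summit without an IDR summit was assigned to 14 genes, and 9 of them also had a summit in the full list of each replicate: AspRS, TrpRS-m, eEF1alpha2, eIF1, eIF2Bbeta, eIF2alpha, eIF2beta, eIF4E1 and eIF4H1. A further 13 genes had summits only in replicate lists. They were eEF1beta, eIF2Bgamma, eIF2D, eIF3a, eIF3f1, eIF3g2, eIF3j, eIF4E3, ArgRS, LysRS, ValRS, ProRS-m and ValRS-m. The remaining 34 of the 84 genes, 18 factors and 16 synthetases, had none, a share near the 37.4% of all genes.

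The 10 words were counted at these summits beside all IDR promoter summits. The homeodomain word TAATTA was in 0 of the 23 promoter summit windows and in 10.8% of all 2636, and CAATTA in 3 of 23 (13.0%, AlaRS, AsnRS and GluProRS) and 10.2%. TATAAA was in 5 of 23 (21.7%, all 24.4%), TCAGT in 7 (30.4%, all 17.4%), TCTTT in 5 (21.7%, all 31.1%), GAGAG in 3 (13.0%, all 9.26%) and ATATTA in 5 (21.7%, all 21.9%). Motif 1 and the E-box word were in none, with 1.59% and 0.683% in all. The DRE word was in 2 windows (8.7%), at eEF1gamma and eIF4A, and in 2.31% of all. Across whole promoters it was in 14 of 51 factors (27.5%), 5 of 33 synthetases (15.2%) and 9.36% of all genes. It was in 7 of the 21 promoters of translation genes with an IDR promoter summit (33.3%) and in 5 of the 34 without any summit (14.7%), where the shares over all genes were 13.0% and 7.35%. With so few windows, these shares are a description only.

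Other genes of protein synthesis outside the symbol rule were counted in 4 lists, to be read beside the 26.9% of all genes with an IDR summit and the 17.0% with one in the promoter. Of the 6 termination, recycling and rescue genes, 4 had IDR summits, all in promoters: eRF3, the GTPase partner of the release factor, at rank 1714, eRF1, the release factor, at rank 1938, pelo, which frees stalled ribosomes, at rank 2055, and its partner HBS1 at rank 4315. The strongest replicate peaks marked 5, 3 and 4 of the 6. Of 17 regulators of initiation, 8 had IDR summits (8 ± 1.73 in the replicates, SD, n = 3); larp, a messenger RNA binding protein gene, had 7, the strongest at rank 52. Synthetase partners and subunits had 1 of 9 (Slimp, rank 6371) and mitochondrial translation factors 1 of 8 (mIF2, rank 6330, summit at -11772 bp from its start). These lists are small, and no test compared them.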

How the data were processed

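Peak lists on dm6 were analysed for 3 ChIP-seq samples of 1 group. The authors' deposited descriptions give peak calling for every replicate, and for the 3 combined, against a common control, with the IDR list derived from these calls. Aligner, peak caller and IDR threshold: not given in the sources used here. The deposited signal score ranked peaks within 1 list, and the deposited -log10 q-value was at its ceiling of 4.37 in every IDR peak. Sonication gave 200 to 800 bp, per the labels. Depth is unknown, and no binomial interval was given.

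Summits (start plus offset, 1-based here) were assigned with Python 3.11.15, numpy 2.4.6 and pandas 2.3.3 to the nearest of all transcript starts of Ensembl release 115, ties going to the first symbol. Figures were drawn with matplotlib 3.10.9. The annotated start codon was ATG in 99.3% of 30763 transcripts read from the reference, and all peaks lay inside its arms. The assignment was tested on simulated summits. Differences between classes were tested over replicates by exact sign-flip permutation, that of GC content being added with the values in view; counts of genes had no test, since genes are not replicates. Whether the replicates came from separate collections is not stated beyond the label of biological replicate. Given with values were the 12 genes with the strongest IDR peaks, the strongest of each group, synthetase pairs with an IDR summit and genes with summits beyond 500 bp. The genes and lists were chosen with earlier results of these data known. Of the symbols in the lists, mEFG2 was not matched and was left out, and eIF4EHP was counted with the translation factors. Sequence from arm 2R is not printed.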

Additional observations from a re-analysis of the deposited data

How the results depend on the processing

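With 1 group of 3 samples, the results are descriptions of peak lists, and the depth that limits them is unknown. Counts of genes with an IDR summit stayed within 1.5 times of those reported with limits of 500 bp or 1 kb, 1 start per gene, starts of any biotype and every gene within 500 bp. The share over all genes moved as well. Translation genes stood at 25.0% (all genes 17.0%) within 500 bp and 25.0% (19.4%) within 1 kb. With 1 start per gene they stood at 26.2% (27.6%), with starts of any biotype at 23.8% (31.2%) and with every gene within 500 bp at 29.8% (22.8%). Whether they stood above or below all genes thus depended on the setting. With the stronger 3588 IDR peaks, which are fewer by construction, 13 translation genes (15.5%, all genes 17.2%) had a summit. These were 8 factors and 5 cytoplasmic synthetases, so 0 of 15 mitochondrial ones. With the pooled list, which is longer, 37 translation genes (44.0%, all genes 45.2%) and 25 factors (49.0%) had one. Without replicate 3, 4 or 5, keeping only IDR peaks matched in both other replicates gave 19, 19 and 21 translation genes. These shares were 22.6%, 22.6% and 25.0%, beside 22.6%, 22.6% and 22.8% of all genes. The counts by class were 11 to 13 factors, 7 to 8 synthetases, 6 to 7 cytoplasmic and 1 to 2 mitochondrial ones. The mitochondrial count was 1 without replicate 3 and without replicate 4, where ArgRS-m was lost. Counting shared starts for each gene, chosen after seeing the data, gave 24 translation genes (28.6%, all genes 27.4%), HisRS being added.

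The factor share minus the synthetase share was 3.86 points, 10.5 with full lists, 0.594 within 500 bp and -3.03 with every gene within 500 bp; the cause of this reversal was not tested. It was 2.23 to 5.17 points when 1 replicate was left out. The cytoplasmic minus mitochondrial difference stayed positive, at 33.0, 24.1 and 30 points in those settings and 20 to 26.1 points with 1 replicate left out. With only 1 group of samples, no comparison between sample groups was possible. The class differences above were paired, being taken within each replicate.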

Other observations

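eIF2D, a gene for an alternative initiation and recycling factor, had a promoter peak in the strongest list of each replicate but none in the pooled or IDR list. The peaks ranked 2597, 2274 and 3685 in replicates 3, 4 and 5, with summits 126, 135 and 69 bp upstream of the start. The nearest IDR summit was 1583 bp away, at Slbp. Such cases were few over the genome: of 4902 assigned strongest peaks of replicate 3 that overlapped one of replicates 4 and 5, 64 (1.31%) overlapped no pooled peak, 46 of them within 500 bp of a start site. Counted by gene, 41 of 2966 genes (1.38%) with a strong summit in each replicate had no pooled summit, and eIF2D was the 1 translation gene of 17. Why the pooled list lacks these peaks was not tested. A further 2 genes without an IDR or pooled summit had a strong promoter peak in 1 replicate only, eIF3a at rank 3786 of replicate 5 and ProRS-m at rank 2684 of replicate 4. eIF2D, eIF3a and ProRS-m were chosen after their values were seen.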
